A study of Bos taurus with 6 samples.

Results

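The miRNAs described here are the newly predicted miRNAs of 19 or 20 nt in bovine serum extracellular vesicles (EVs), membrane particles that cells release into body fluids. They were taken from the deposited count table as every entry whose name carries the prefix given to predictions and whose listed length is 19 or 20 nt. This gave 107 of the 706 entries, 69 of 19 nt and 38 of 20 nt, among 347 newly predicted miRNAs in all. Just outside these lengths lay 158 newly predicted miRNAs of 18 nt with 121965 counts and 42 of 21 nt with 152945 counts. The study asked whether diet changes circulating EV-miRNAs, and serum EVs of 6 female Holstein cows in mid lactation were sequenced as 1 small RNA library per cow. Control cows (Con1 to Con3, n = 3) received a total mixed ration (TMR). Tested cows (Tre1 to Tre3, n = 3) received a ration in which whole cotton seed and soybean hull took the place of part of the alfalfa hay. The tested ration also held less corn silage, and more steam-flaked corn and fat. Both diets were given for 30 days, all cows were 101 ± 10 days in milk, and they were kept under the same constant temperature and humidity.

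A miRNA is cut from a hairpin precursor by the enzymes Drosha and Dicer and is loaded into an Argonaute protein. Bases 2 to 8 from its 5′ end, the seed, pair with target mRNAs, so that miRNAs with the same seed are grouped in families. A newly predicted miRNA is an entry that a program, here miRDeep2, proposes from reads that could fold as part of such a hairpin, and it carries no name in miRBase. Most animal miRNAs are somewhat longer than 20 nt, and short reads can also come from other RNAs such as tRNAs, which end in the letters CCA after processing.

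The 10 entries with the highest mean share of the counts are shown first, since they held most of the counts of the 107. Sequences are written 5′ to 3′ in DNA letters as in the deposited table, with the seed (bases 2 to 8) in capitals.
novel33_mature: gGTCCTGTagctcagagga
novel285_mature: aTCCTGGGtcctggcacca
novel210_mature: gGTAGCTCacatggtagag
novel342_mature: cGCTGGTAgtccaatggtt
novel336_mature: tGAGGTAGtaggttgtggt
novel313_mature: aTAGAGGTagagctactgtt
novel7_mature: gGGGGCCGgcggcggcggc
novel27_mature: tCCCTGTCctccaagagctt
novel289_mature: aGTAGGGGcagagggaatt
novel21_mature: cGGCGCCGgggcgggctcc

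The 4 entries that passed the test of tested against control, described further on, include novel33_mature and the next 3.
novel140_mature: aGTCGTCGggggccccggg
novel117_mature: aTACCACTctggaagggct
novel235_mature: tGAGGGGCagagagccagag

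The libraries held between 1277693 and 2176002 miRNA counts, so that a count of 0 allows up to 1.38 to 2.35 CPM (counts scaled to one common library total) at 3 counts per library. PCR copies are not separate molecules, so these limits take in counting error alone. Serum can hold RNA of blood cells, and 3 lists of their miRNAs were read in each library. The red cell miRNAs (bta-miR-451, bta-miR-486 and bta-miR-144) took 0.827% to 5.72% of the counts, with the highest share in Tre1. The white blood cell miRNAs (bta-miR-223, bta-miR-150 and bta-miR-142-5p) took 0.00763% to 0.0387%, with the highest share in Tre1. The platelet and vessel miRNAs (bta-miR-126-3p and bta-miR-126-5p) took 0.00103% to 0.0159%, with the highest share in Tre3 and the next, 0.0130%, in Tre1. All 8 of these miRNAs had counts in all 6 libraries, and bta-miR-142-3p of the white cell list was not analysed here. In such libraries, fewer vesicles with a miRNA and less of it per vesicle cannot be told apart.

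The 107 miRNAs were a small part of the small RNA pool, and their share of the miRNA counts was highest in Tre3. Together they held 53117 counts, 0.480% of all miRNA counts, of which 42937 fell on those of 19 nt and 10180 on those of 20 nt. Their share was 0.490%, 0.388% and 0.285% in Con1 to Con3 and 0.476%, 0.390% and 0.823% in Tre1 to Tre3. Tre3 was above every control cow, whereas Tre1 and Tre2 lay among the control cows. Control cows averaged 0.387% ± 0.103 (SD, n = 3) and tested cows 0.563% ± 0.229 (SD, n = 3), which is 0.176 percentage points more (two-sided exact permutation test, p = 0.400, where 3 against 3 cannot go below 0.10). Without Tre3 the difference was 0.0458 percentage points. Scaled to the clean reads of a library (RPM), the 107 miRNAs stood at 566 ± 52.8 (SD, n = 3) for control cows and 595 ± 161 (SD, n = 3) for tested cows (exact permutation test, p = 0.900). On this scale Con1 to Con3 stood at 546, 626 and 527 and Tre1 to Tre3 at 422, 622 and 741. The higher tested mean on this scale rested on Tre3, since Tre1 was the lowest of all cows and Tre2 lay among the control cows. Tre3 had 24187264 clean reads and the other cows 11048676 to 14426224, and the part of this in its share was not tested.

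**Figure D1:**
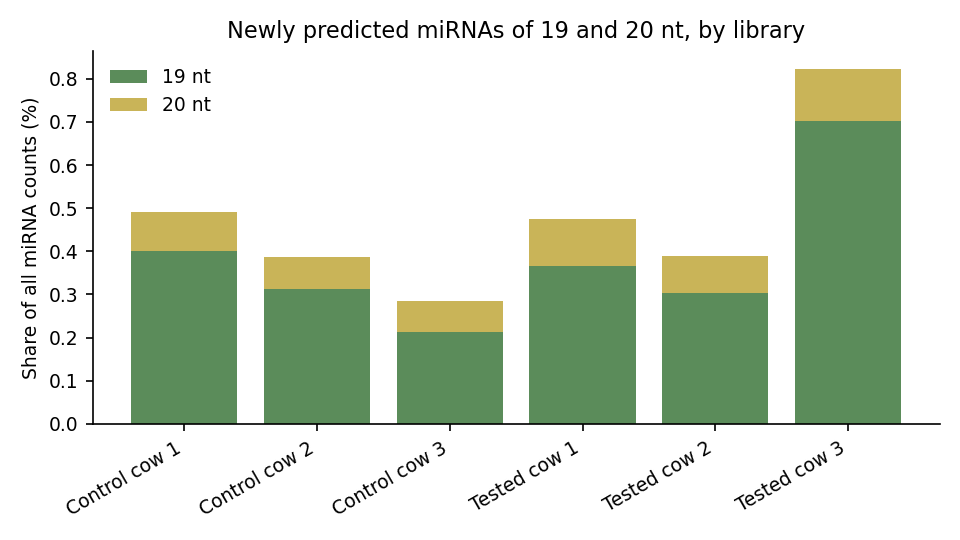
Share of all miRNA counts (%) held by the newly predicted miRNAs of 19 nt and 20 nt in each of the 6 libraries, as stacked bars from 0. The bar of Tre3 reaches 0.823%, and the other 5 lie between 0.285% and 0.490%.

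Both lengths showed this order of the group means. The 19-nt miRNAs held 0.309% ± 0.0946 (SD, n = 3) of the counts for control cows and 0.457% ± 0.214 (SD, n = 3) for tested cows (exact permutation test, p = 0.500). The 20-nt miRNAs held 0.0892%, 0.0745% and 0.0730% in Con1 to Con3 and 0.110%, 0.0871% and 0.122% in Tre1 to Tre3 (exact permutation test, p = 0.200). For the 20-nt miRNAs 2 of the 3 tested cows were above every control cow.

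Few entries made up most of the counts. The 10 highest entries of a library held between 67.9% and 81.1% of its counts on the 107, and the 3 highest between 35.6% and 56.8%, with the upper end in Tre3 in both cases. The median entry had 73.0 counts over the 6 libraries, and single entries ran from 2 to 9934. The best placed of them was at rank 37 among all miRNAs in Tre3 and at ranks 63 to 68 in the other libraries.

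The leading entry over all libraries was novel33_mature, with 823, 579 and 626 counts in Con1 to Con3 and 937, 869 and 6100 in Tre1 to Tre3. In Tre3 it alone held 34.1% of the counts on the 107. The second, novel285_mature, had 1258, 980 and 937 counts in Con1 to Con3 and 740, 1142 and 2086 in Tre1 to Tre3. It was the highest entry in Con1 and Con3 and in Tre2, and its groups overlapped. The third, novel210_mature, had 894, 233 and 361 counts against 151, 583 and 1980. The fourth, novel342_mature, had 776, 1139 and 231 counts against 78, 226 and 1398. In CPM scaled by TMM both were highest in Tre3, while novel342_mature was lowest in Tre1 with 60.8 and novel210_mature was lowest in Con2 with 113, next to Tre1 with 118.

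Of the next 6, novel336_mature carries the seed of the let-7 family, which is known for its part in cell differentiation. It had 275, 735 and 795 counts in Con1 to Con3 and 173, 691 and 427 in Tre1 to Tre3, with the groups overlapping. The 20-nt novel313_mature had 317, 392 and 228 counts against 318, 193 and 748. The 20-nt novel27_mature carries the seed of bta-miR-339a and had 279, 296 and 207 counts against 297, 172 and 376. With CPM scaled by TMM, which corrects each library by a trimmed mean of its ratios to a reference library, it stood at 141 ± 29.3 (SD, n = 3) for control cows and 161 ± 69.1 (SD, n = 3) for tested cows.

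The GC-rich novel7_mature and novel21_mature were low in the same cows. The first had 255, 515 and 89 counts in Con1 to Con3 and 372, 34 and 409 in Tre1 to Tre3. The second had 199, 350 and 79 counts against 305, 17 and 187. Both were lowest in Tre2. The last of the 10, novel289_mature, had 246, 74 and 207 counts against 112, 145 and 533.

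**Figure D2:**
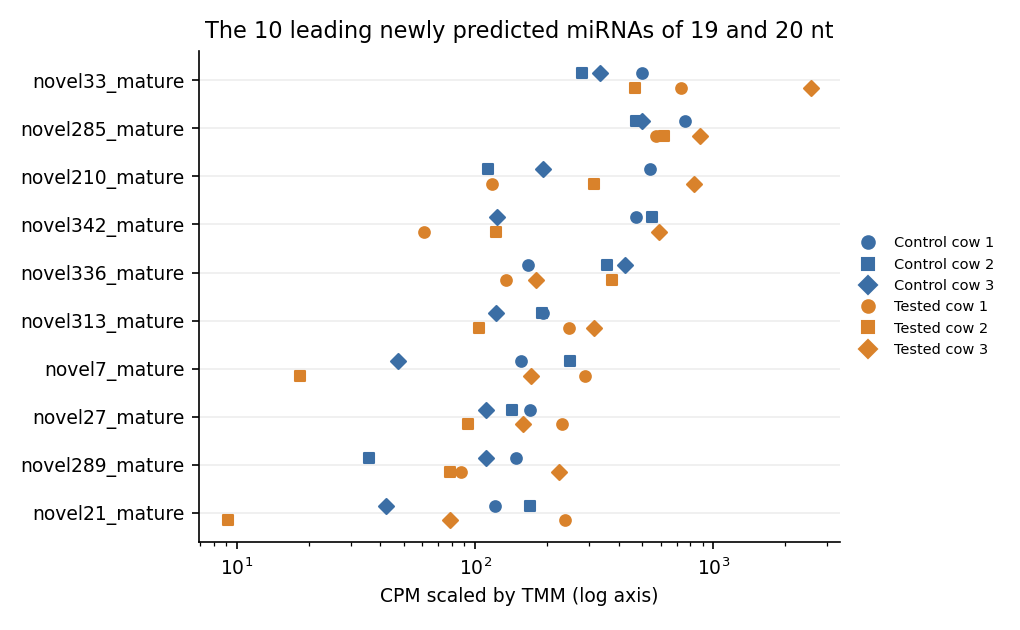
CPM scaled by TMM (log axis) of the 10 leading newly predicted miRNAs of 19 and 20 nt, with 1 point per cow, control above and tested below each line. Points of the groups overlap for all 10, and the point of Tre3 for novel33_mature lies far to the right of the rest.

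The 107 miRNAs were richer in GC than known miRNAs of lengths other than 19 and 20 nt. Their median GC content was 63.2%, against 66.7% for newly predicted miRNAs of 18 nt, 60.0% for those of 21 to 25 nt, 65.0% for the 24 known miRNAs of 19 or 20 nt and 45.5% for known miRNAs of other lengths. The first base was T, the U of the RNA, in 25.2% of the 107, in 13.9% of those of 18 nt and in 31.7% of those of 21 to 25 nt. Known miRNAs of other lengths began with T in 48.1% and with G in 7.46%, while 28.0% of the 107 began with G. The 24 known miRNAs of 19 or 20 nt began with T in 12.5% and with G in 29.2%, and predictions of 18 nt with G in 46.2%. The first base was A in 24.3% and C in 22.4% of the 107, against 15.8% and 24.1% at 18 nt and 23.2% and 26.8% at 21 to 25 nt. By name, 105 were listed as mature and 2 as star strands, usually the lesser arm of a hairpin. Where both arms were listed, novel48_mature had 14 counts against 83 for its star, and novel17_mature>novel28_mature 39 against 44. In the other pairs the star had fewer counts.

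Each sequence was compared with all known miRNAs of the table by its fewest edits, the smallest number of bases changed, added or lost that places the shorter sequence inside the longer. The 107 fell into a large set far from any known miRNA of the table and a small set close to one. At 5 edits or more lay 85 of them, 6 were at 4 edits, 2 at 3 edits and 14 (13.1%) at 1 or 2 edits. None of the 158 predictions of 18 nt lay within 2 edits, and 7 (8.54%) of the 82 predictions of 21 to 25 nt did. Of the 24 known miRNAs of 19 or 20 nt, 9 (37.5%) lay within 2 edits of another known miRNA.

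**Figure D3:**
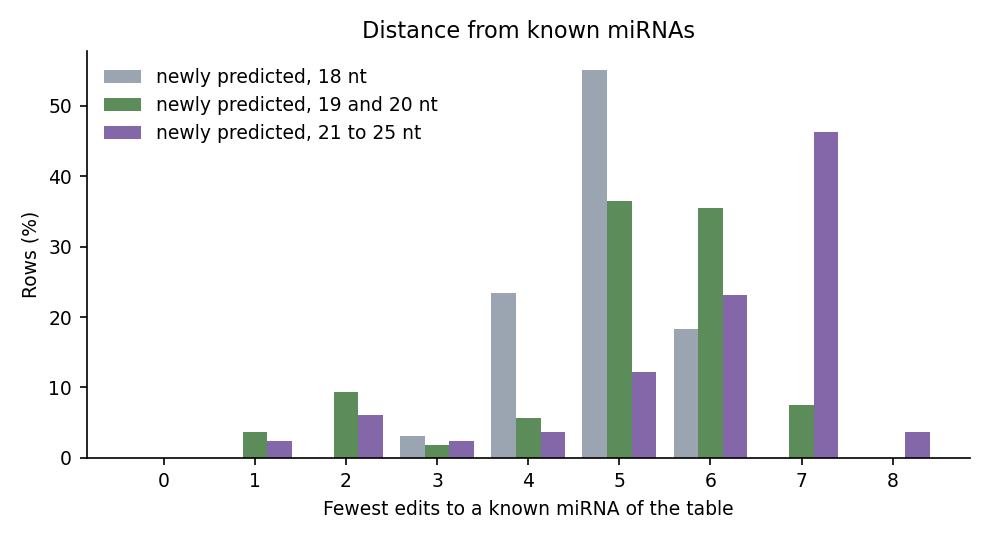
Percentage of rows (y axis) by the fewest edits to a known miRNA of the table (x axis) for newly predicted miRNAs of 18 nt, of 19 and 20 nt and of 21 to 25 nt. Among those of 19 and 20 nt, 14 lie at 1 or 2 edits and 85 at 5 or more.

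The 14 close to a known miRNA are of interest because their seeds and their levels can be set beside those of named families. These sequences were singled out after their values were seen, apart from those that the naming rule also gives. Known miRNAs are shown with the predictions nearest to them.
bta-let-7b: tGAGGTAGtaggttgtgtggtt
novel336_mature: tGAGGTAGtaggttgtggt
novel50_mature: gGAGGTAGtaggttgtgttg
bta-miR-339a: tCCCTGTCctccaggagctcac
novel27_mature: tCCCTGTCctccaagagctt
novel274_mature: tCCCTGTCctccgggagctg
novel65_mature: tCCCTGTCctccaggaccc
novel64_mature: tCCCTGTCctccgggagcta
bta-miR-151-5p: tCGAGGAGctcacagtctagt
novel184_mature: cGAGGAGCtcacagtccagt
novel31_mature: cGAGGGGCtcacagtctat
novel72_mature: cGAGGATCtcacagtctaa
bta-miR-423-5p: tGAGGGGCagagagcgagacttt
novel235_mature: tGAGGGGCagagagccagag
novel218_mature: tGAGGGGCagagagagagg
bta-miR-186: cAAAGAATtctccttttgggct
novel300_mature: aAAGAATTctccttttggag

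The other 2 are novel186_mature, 1 edit from bta-miR-124a, whose family is abundant in the brain, and novel6_star, 2 edits from bta-miR-2284x. Of the 14, 8 have the same seed as the nearest known miRNA, while the 3 next to bta-miR-151-5p begin 1 base later and so have another seed. The 14 held 5545 counts, 10.4% of the counts on the 107. Per library they held 8.30%, 15.7% and 19.7% in Con1 to Con3 and 8.97%, 13.9% and 5.06% in Tre1 to Tre3. As a share of all miRNA counts they were 0.0525% ± 0.0106 (SD, n = 3) for control cows and 0.0462% ± 0.00690 (SD, n = 3) for tested cows (exact permutation test, p = 0.500).

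Their levels relative to the known neighbour differed widely. For every 1000 counts of bta-let-7b there were 1.81, 3.03 and 3.20 counts of novel336_mature in Con1 to Con3 and 1.36, 3.30 and 1.87 in Tre1 to Tre3. The other let-7-like entry, novel50_mature, stayed between 0.0362 and 0.255 per 1000 counts of bta-let-7b. Of the 4 entries next to bta-miR-339a, novel27_mature had the highest ratio. Per 1000 counts of bta-miR-339a there were 162, 113 and 74.1 counts of novel27_mature in Con1 to Con3 and 407, 88.0 and 273 in Tre1 to Tre3. In the test of tested against control, the log2 fold change was 0.19 for novel27_mature and -0.79 for bta-miR-339a. It was 3.09 for bta-miR-339b, a known miRNA with the same seed, and none of these passed. What the known miRNAs contribute to the ratios was not tested. The other 3 next to bta-miR-339a had 0 to 30.7 counts per 1000 of it, and the 30.7 was that of novel274_mature in Tre2. Per 1000 counts of bta-miR-124a, which had 44 counts in all, novel186_mature had 1000, 6000 and 0 in the control libraries against 667, 0 and 0, and novel6_star had 148 per 1000 of bta-miR-2284x in Con3 and 0 elsewhere. The 3 entries next to bta-miR-151-5p had at most 0.656 counts per 1000 of it, and novel300_mature had 0.710 to 3.07 per 1000 counts of bta-miR-186. Just outside this set at 3 edits, novel69_mature had 7.09 to 47.4 counts per 1000 of bta-miR-320a, with the highest value in Tre2.

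The seeds give a second view of relationship. Of the 107, 15 (14.0%) have a seed that a known miRNA of the table also has, against 6.33% of the predictions of 18 nt and 11.0% of those of 21 to 25 nt. Among known miRNAs of 19 or 20 nt, 33.3% share their seed with another known miRNA. Within the 107, 10 seeds are shared by 2 to 4 entries, which takes in 26 of them. The 4 entries with the bta-miR-339a seed had 1722 counts together, with 283, 302 and 213 in Con1 to Con3 and 303, 233 and 388 in Tre1 to Tre3. The 2 with the let-7 seed had 3239 counts, with 289, 797 and 804 against 190, 712 and 447. The 4 with the bta-miR-423-5p seed had 323 counts, with 153, 70 and 20 against 52, 7 and 21, and were novel90_mature, novel235_mature, novel31_mature and novel218_mature. Of these, novel90_mature had 118, 0 and 0 counts in Con1 to Con3 and 45, 4 and 17 in Tre1 to Tre3. For novel31_mature the counts were 5, 24 and 20 against 5, 1 and 4.

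The seed of novel285_mature, the second leading entry, is shared with novel241_mature and with the known bta-miR-1343-3p. These 2 entries had 7236 counts together, the most of any shared seed, with 1288, 980 and 977 in the control libraries against 744, 1146 and 2101. The seed of novel66_mature and novel269_mature is also that of bta-miR-12048, and they had 198 counts together. Some other shared seeds have no known miRNA in the table. The seed GGGGCCG is that of novel7_mature, novel349_mature and novel96_mature, which had 399, 616 and 170 counts together in Con1 to Con3 and 454, 131 and 467 in Tre1 to Tre3. Runs of G make up the seed of novel104_mature, novel163_mature and novel74_mature, which had 31, 252 and 4 counts against 103, 25 and 96. No group of entries with a common seed separated the 2 diets in these counts, apart from single entries described below.

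The 2 leading sequences, novel33_mature and novel285_mature, and 8 others with 54 to 879 counts each carry letters that are common in tRNAs. The letters searched, chosen after the sequences were seen, were AGCTCAG from the D arm, GGTTCNA from the T arm, the A box motif of tRNA genes and an end in CCA. The strand as listed was searched, and the reverse complement of AGCTCAG and of CCA each matched 1 of the 107 at the same place, the others none. AGCTCAG was found in 3 of the 107 (novel33_mature, novel294_mature and novel128_mature) and in 0.992% of all 706 entries. GGTTCNA was found in novel83_mature (0.567% of all entries), and the A box motif in novel355_mature (0.567% of all entries). An end in CCA was found in 5 of the 107 (novel285_mature, novel25_mature, novel174_mature, novel116_mature and novel187_mature) and in 2.69% of all entries.
novel294_mature: tCAGGATAgctcagttggta
novel83_mature: tGTGACCCgggttcaattc
novel355_mature: gGAGAGGTggcagagtggta
novel25_mature: cTCCACTGtgagggcacca
novel174_mature: aGTCCGGCctggggcacca

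At least 1 of the 4 was found in 10 (9.35%) of the 107, in 8.23% of the predictions of 18 nt, in 8.54% of those of 21 to 25 nt and in 1.19% of known miRNAs of other lengths. These 10 held 35.9% of the counts on the 107, while entries with such letters held 8.09% of the counts on predictions of 18 nt, 85.4% on those of 21 to 25 nt and 0.224% on known miRNAs of other lengths. Single entries set these shares, since novel33_mature and novel285_mature alone held 32.1% of the counts on the 107, and novel34_mature alone held 83.9% of those at 21 to 25 nt. The percentage was 32.2, 22.1 and 32.2 in Con1 to Con3 and 30.6, 29.9 and 49.2 in Tre1 to Tre3. Tre3 was again the highest and Con2 the lowest, with the other 4 cows between 29.9% and 32.2%. As a share of all miRNA counts the 10 had 0.112% ± 0.0400 (SD, n = 3) for control cows and 0.222% ± 0.159 (SD, n = 3) for tested cows (exact permutation test, p = 0.300). The difference was 0.111 percentage points, and without Tre3, left out after its value was seen, it was 0.0195. A match of letters does not show which RNA a read came from, and the source of these reads was not tested. Known miRNAs that the table does not list were not compared with these entries.

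In 3 cases another prediction of 18 nt lies wholly inside one of the 107 and ends 1 base earlier, so that reads of one RNA could be divided between 2 entries.
novel208_mature: tTTCTCGGctggtgcacct
novel206_mature: tTTCTCGGctggtgcacc
novel305_mature: aGTGGATGaccttggctgc
novel201_mature: aGTGGATGaccttggctg
novel96_mature: gGGGGCCGgcggcggcgac
novel2_star: gGGGGCCGgcggcggcga

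For novel208_mature the counts were 310, 61 and 240 in Con1 to Con3 and 97, 363 and 75 in Tre1 to Tre3. The shorter novel206_mature had 1, 0 and 0 counts in Con1 to Con3 and 0, 133 and 211 in Tre1 to Tre3. Together they had 311, 61 and 240 counts against 97, 496 and 286, and the groups overlapped. For novel305_mature the counts were 158, 83 and 56 against 165, 145 and 215, while those of the shorter novel201_mature were 133, 12 and 84 against 0, 0 and 0. The sums of both were 291, 95 and 140 in Con1 to Con3 and 165, 145 and 215 in Tre1 to Tre3, and again overlapped. Both 18-nt partners passed the test of tested against control on their own. The third partner, novel2_star, had 1 count in Con2, so that novel96_mature, with 14, 35 and 4 against 33, 6 and 16 counts, was hardly changed by it.

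Detection was broad for some entries and limited to 1 cow for others. A count of at least 1 in all 6 libraries was found for 44 (41.1%) of the 107, against 36.7% of the predictions of 18 nt, 28.0% of those of 21 to 25 nt and 50.1% of known miRNAs of lengths other than 19 and 20 nt. Of the 24 known miRNAs of 19 or 20 nt, 5 (20.8%) had counts in all 6 libraries. Only 4 had counts in a single library. Counts in both groups were found for 89, while 12 were seen in the control group alone and 6 in the tested group alone. This split was not made over all 706 entries, so that it cannot be read as a trait of the 107. The control libraries had 76, 87 and 69 of the 107 and the tested libraries 86, 81 and 81, with means of 77.3 ± 9.07 (SD, n = 3) and 82.7 ± 2.89 (SD, n = 3) (exact permutation test, p = 0.500). This difference of 5.33 was 1.17 without Con3 and 10.2 without Con2. Counting only entries with 2 counts or more, control cows averaged 62.0 ± 5.29 (SD, n = 3) and tested cows 72.0 ± 4.58 (SD, n = 3), and no tested cow was as low as a control cow (p of 0.10 by exact permutation). Only this cut of 2 counts separated the groups. With at least 5 counts control cows averaged 52.7 ± 2.31 (SD, n = 3) and tested cows 58.0 ± 10.4 (SD, n = 3) (exact permutation test, p = 0.800). With at least 10 counts control cows averaged 46.7 ± 3.06 (SD, n = 3) and tested cows 48.7 ± 12.4 (SD, n = 3), and Tre3 had 63. Thinned to the depth of the smallest library, at least 1 count was found for 71.7 ± 7.22 and 80.1 ± 5.32 (SD, n = 3 each) (exact permutation test, p = 0.200).

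The 4 entries found in a single library were novel6_star with 27 counts in Con3, novel282_mature with 25 in Con2, novel127_mature with 23 in Tre2 and novel277_mature with 7 in Con3. A wider pattern was seen in 17 of the 107, which had at least 20 counts in 1 library and at most 1 count in each other library. These were highest in Con1 (5 entries), Con2 (3), Con3 (3), Tre1 (1) and Tre2 (5), and in no case in Tre3. Among the 98 entries with at least 10 counts in all, 21 (21.4%) had 80% or more of their summed CPM in 1 library. With the same minimum this was so for 14.9% of predictions of 18 nt, 30.6% of those of 21 to 25 nt, 31.6% of known miRNAs of 19 or 20 nt and 22.5% of known miRNAs of other lengths.

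Among more abundant entries the part held by the highest library was similar for all predictions. With at least 300 counts, it was a median of 35.2% of the CPM for 27 entries of 19 and 20 nt, 35.4% for 42 predictions of 18 nt, 32.8% for 11 of 21 to 25 nt and 31.8% for 5 known miRNAs of 19 or 20 nt. It was 23.0% for 145 known miRNAs of other lengths, and these differences were not tested. For novel140_mature it was 93.4% in Tre2 and for novel148_mature 88.1% in Tre1, while none of the 145 known miRNAs had 80% in 1 library. The counts of novel148_mature, named after its values were seen, were 0, 53 and 39 in Con1 to Con3 and 657, 1 and 53 in Tre1 to Tre3.

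**Figure D4:**
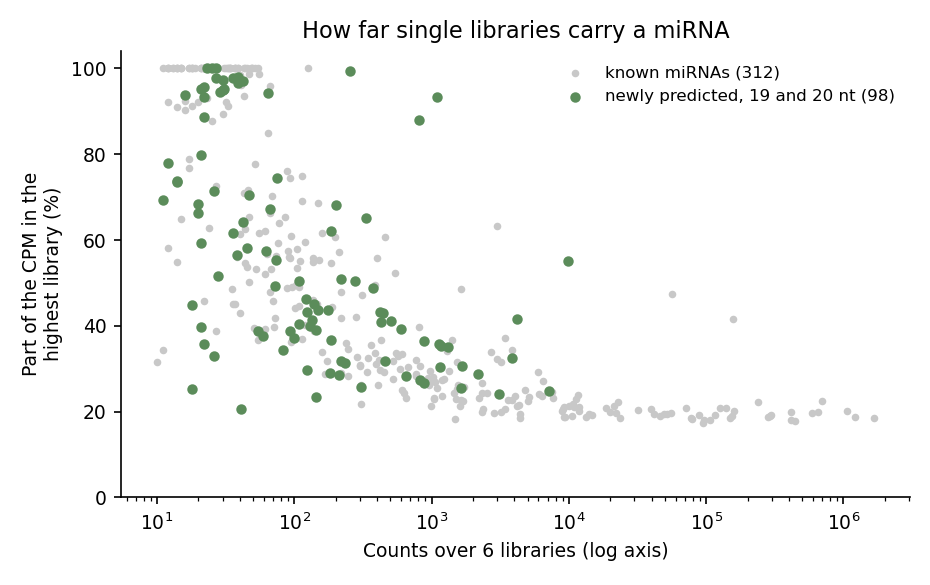
Part of the summed CPM that lies in the highest library (%) against the counts over 6 libraries (log axis), for 312 known miRNAs and 98 newly predicted miRNAs of 19 and 20 nt with at least 10 counts. At 300 counts or more the median is 23.0% for known miRNAs of lengths other than 19 and 20 nt and 35.2% for the newly predicted ones, which reach 93.4%.

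Few of the 107 passed the threshold for a difference between the diets, at a share close to that of all miRNAs. The comparison was made with edgeR, by its quasi-likelihood F test, over 623 miRNAs with at least 10 counts in all, known and newly predicted together, with a positive log2 fold change for higher values in the tested group. The threshold was an unadjusted p below 0.05 with a log2 fold change beyond 1 in either direction. Of the 107, 98 entered the test and 9 had fewer than 10 counts. The threshold was passed by 4 of the 98, where 3.21% of all 623 miRNAs passed, so that the share of 4.08% is close to the background. Of the 4, 2 were higher in the tested group (2.09% of all miRNAs) and 2 lower (1.12% of all miRNAs). The same 4 had an unadjusted p below 0.05, as did 4.65% of all miRNAs. None had an adjusted p (Benjamini and Hochberg over the 623) below 0.05 by edgeR, DESeq2 or limma, and 0.161% of all miRNAs did by edgeR. DESeq2 gave no p-value for 3 of the 98, novel140_mature and novel117_mature among them, so that it could not call these. By unadjusted p with the same fold, DESeq2 passed 4 of the 98, where it passed 4.17% of all miRNAs, and limma 3, where it passed 2.41% of all. The median log2 fold change was 0.20 over the 98 and 0.07 over all 623, with 53 of the 98 and 333 of all 623 positive.

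**Figure D5:**
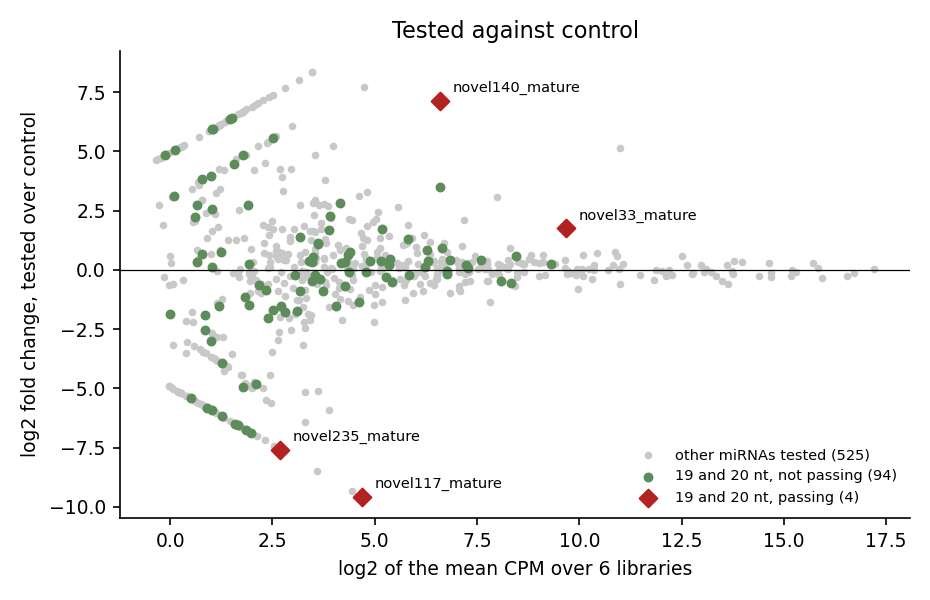
Log2 fold change of tested over control against the log2 of the mean CPM for the 623 miRNAs tested. The 98 newly predicted miRNAs of 19 and 20 nt are in green, and the 4 that passed, with log2 fold changes of 7.14, 1.76, -7.59 and -9.57, are marked by red diamonds.

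The entry with the smallest p was novel140_mature, a GC-rich sequence, with 4, 1 and 2 counts in Con1 to Con3 and 9, 1017 and 57 in Tre1 to Tre3. In CPM the lowest tested cow lay over the highest control cow, yet most of the counts lay in Tre2. On the log2 scale it was higher by 7.14 with a standard error of 1.58 and an unadjusted p of 0.000594, and edgeR gave an adjusted p of 0.185. That adjusted p ran from 0.000682 without Con1 to 0.782 with limma over the settings tried, and was 0.0243 with the replicate number as a block, 0.0464 with scaling by clean reads and 0.0156 without a filter on low counts. The log2 fold change was 4.89 with the block and 4.45 with limma. Without Tre2 it was 3.49 and did not pass (unadjusted p of 0.187).

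The leading entry novel33_mature also rose. Its CPM scaled by TMM were 372 ± 114 (SD, n = 3) for control cows and 1255 ± 1142 (SD, n = 3) for tested cows, and its log2 fold change of 1.76 had a standard error of 0.547, an unadjusted p of 0.00687 and an adjusted p by edgeR of 0.448. The groups overlapped, as Tre2 was below Con1 (exact permutation test on CPM, p = 0.200). The rise rests on Tre3, without which the log2 fold change was 0.71 (unadjusted p of 0.129). In the other 9 leading entries no difference passed, with log2 fold changes from -0.57 for novel342_mature to 0.58 for novel210_mature. These limits depended on single cows. Without Tre3 the value for novel342_mature was -2.04 and passed (unadjusted p of 0.00930), and without Con1 the value for novel210_mature was 1.46 and passed (unadjusted p of 0.0312).

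Of the 2 that fell, novel117_mature had 253, 1 and 1 counts in Con1 to Con3 and 0 in each tested cow. Its value of -9.57 on the log2 scale had a standard error of 2.90, an unadjusted p of 0.00713 and an adjusted p by edgeR of 0.448. With limma the value was -2.82 and did not pass (unadjusted p of 0.122), and filterByExpr, a stricter filter on low counts, left this entry out. It was at least 80.1-fold lower when the tested group as a whole was set to a floor of 3 counts, but Con1 held 253 of its 255 counts. Without that cow the summed count was too low for the test. The 20-nt novel235_mature, 2 edits from bta-miR-423-5p, had 28, 45 and 0 counts in Con1 to Con3 and 0 in each tested cow. It fell by 7.59 on the log2 scale (standard error 3.27), with an unadjusted p of 0.0408 and an adjusted p by edgeR of 0.448, and was at least 22.9-fold lower over the group floor. It was detected in 2 of the 3 control cows, and it lost its call without any 1 cow other than Con3, with values from -6.95 to -7.67 and unadjusted p from 0.0533 to 0.0853. It also did not pass with limma (-2.89, unadjusted p of 0.0645) or with the replicate number as a block (-6.83, unadjusted p of 0.0997).

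The groups did not overlap in CPM for 9 of the 98, where 10.8% of all 623 miRNAs did not overlap. In 7 all tested cows lay over all control cows (8.03% of all miRNAs) and in 2 all lay under them (2.73% of all miRNAs). Besides novel140_mature, the most abundant of the 7 was novel55_mature, with 7, 0 and 16 counts in Con1 to Con3 and 50, 59 and 53 in Tre1 to Tre3.
novel55_mature: aGAAGGCAggtctctgggc

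This entry, named after its values were seen, was even within the tested group, with 31.1 ± 8.37 CPM (SD, n = 3) against 4.27 ± 4.28 CPM (SD, n = 3) in the control group. The log2 fold change of 2.85 did not pass with edgeR (standard error 1.75, adjusted p = 0.522) and passed by the unadjusted p of DESeq2 and of limma. The other 5 had 12 to 36 counts in all, namely novel191_mature, novel254_mature and novel48_mature, named after their values were seen, novel169_mature with 0 counts in each control cow and 1, 2 and 11 in Tre1 to Tre3, and novel333_mature with 0 against 1, 1 and 10. Their highest cow was Tre3 in each case. Some of these separations are of 1 count or less, since novel48_mature had 1 count in Con2 and 1 in Tre2 (0.484 and 0.541 CPM), and the lowest tested cows of novel169_mature and novel333_mature had 1 count, under the floor of 3. On the lower side, novel184_mature lay next to novel117_mature. This entry, 1 edit from bta-miR-151-5p, had 22, 38 and 37 counts in Con1 to Con3 and 17, 14 and 17 in Tre1 to Tre3, or 17.2 ± 3.40 and 9.32 ± 3.40 CPM (SD, n = 3 each). Con1 and Tre1 were almost equal, at 13.3 and 13.2 CPM. With edgeR its log2 fold change of -0.88 (standard error 1.60) did not pass, at an adjusted p of 0.911.

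Among the 14 entries close to a known miRNA, 12 were tested and 1 passed, novel235_mature, where 3.21% of all 623 miRNAs passed. Among the 10 with letters common in tRNAs, all 10 were tested and 1 passed, novel33_mature, against the same background. For comparison, 10 of 141 predictions of 18 nt passed (7.09%), 3 of 72 of 21 to 25 nt (4.17%), 0 of 19 known miRNAs of 19 or 20 nt and 3 of 293 known miRNAs of other lengths (1.02%). The difference between these percentages was not tested.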

How the data were processed

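Serum EV small RNAs of 6 cows were sequenced, 1 library per cow. The authors trimmed the reads (their processing notes list cutadapt 1.14 and Bowtie), matched them to the bovine genome, used BLAST and Rfam to set aside reads of other RNAs, took known miRNAs from miRBase and predicted others with miRDeep2. The deposited counts are whole numbers without normalization, and the counting tool is not given in the sources used here. The authors also deposited RPM values, each the count divided by the clean reads of its library, used here only to recover those reads. Columns with the authors' own fold changes and p-values, and their list of changed miRNAs, were not used.

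Groups were taken from the sample titles. All 706 miRNAs were read, and 623 with at least 10 counts in all were fitted in R 4.3.3 with edgeR 4.0.16 (TMM, estimateDisp, glmQLFit, glmQLFTest). Alternatives were limma 3.58.1 with log2(CPM + 1) values, DESeq2 1.42.0, factors by RLE, no factors, clean reads as library size, other filters, merging of nested sequences, the replicate number as a block, and each cow left out. Single measures were compared by two-sided exact permutation tests (SciPy 1.17.1). Edits were counted with edlib, allowing the shorter sequence to lie anywhere inside the longer. The edgeR procedure was tested on simulated data. The miRNAs and their lists were chosen with earlier results of these data known. Named are the 10 with the highest mean share, all that passed, up to 5 found in 1 library, up to 5 found in all of one group and none of the other, up to 10 nested ones and up to 5 with the seed of one of the 20 leading known miRNAs. No genome sequence was used, so that genome positions and hairpins of the predictions were not analysed here. Between 1277693 and 2176002 counts per library lay behind the values.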

Additional observations from a re-analysis of the deposited data

How the results depend on the processing

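The number of newly predicted miRNAs of 19 and 20 nt that passed was 4. With filterByExpr, which tested 52 of them, it was 2, and under the other settings with all cows it ran from 3 to 5. Over these settings 1.93% to 4.17% of all miRNAs tested passed. Leaving out 1 cow gave 3 to 6, where 2.80% to 3.85% of all passed. The numbers of the cows do not pair the samples, since same-numbered cows are different animals. The deviations of same-numbered cows had correlations of -0.0571, -0.0494 and -0.0200, and those of differently numbered cows ran from -0.0597 to 0.107. These values therefore do not set same-numbered cows apart from others. With the replicate block 4 passed, 3 of them the same, while the count over all 623 miRNAs went from 20 to 12. DESeq2 gave no p-value for 3 of the 98, novel140_mature and novel117_mature among them. Scaling by clean reads moved the median log2 fold change of all miRNAs from 0.07 to -0.32, and with it novel285_mature to -0.10, novel313_mature to -0.09, novel7_mature to -0.54, novel27_mature to -0.29 and novel96_mature to -0.24. The sign of novel7_mature also turned with DESeq2 and RLE factors (-0.02 each) and limma (-0.32). Merging nested sequences turned novel208_mature to 0.42 and novel305_mature to -0.01. For novel90_mature the value was 1.23 with limma and 2.89 with the replicate block, and for novel50_mature 0.03 with the block. Directions that depended on 1 cow were those of novel210_mature (-0.36 to 1.46), novel7_mature (-0.66 to 0.67), novel27_mature (-0.17 to 0.46), novel289_mature (-0.23 to 0.82), novel21_mature (-1.33 to 0.50), novel208_mature (-1.12 to 0.35), novel96_mature (-0.87 to 1.19), novel90_mature (-2.33 to 7.80) and novel50_mature (-0.80 to 0.74). The share of the miRNA counts and the number detected kept a higher mean in the tested group under all settings tried. Scaled to clean reads, the higher tested mean rested on Tre3, with Tre1 at 422 and Tre2 at 622 against a control mean of 566. An adjusted p below 0.05 was reached by novel140_mature with the block, with clean reads, without a filter and without Con1 (0.000682), Tre1 (0.000949) or Tre3 (0.0124), and by novel33_mature without Con1 (0.0453), and by no other of these miRNAs. Depth limits entries with few counts most.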
